A study of Homo sapiens with 8 samples.

Results

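Translation elongation factors and several other abundant proteins of the translation machinery are encoded by terminal oligopyrimidine (TOP) mRNAs. The set described here holds 9 genes, chosen by name as TOP mRNAs that do not encode ribosomal proteins: EEF1A1, EEF1B2, EEF1D, EEF1G, EEF2, TPT1, NAP1L1, NPM1 and GNB2L1. All 9 were present among the 10105 genes of the count table; GNB2L1 appeared under its current symbol, RACK1.

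A TOP mRNA begins with a cytidine at the cap that is followed by an uninterrupted run of pyrimidines. The kinase complex mTORC1 is known to favour translation of these mRNAs when nutrients and growth factors are present, and the RNA-binding protein LARP1 holds them back and stabilises them when mTORC1 is inactive. Their translation is known to change as a group, often without a change in mRNA amount.

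The libraries came from HEK293T, an established human embryonic kidney cell line. Wild-type (WT) cells were compared with an XRN1-null line that had been made from HEK293T by CRISPR/Cas9 editing. XRN1 is the main cytoplasmic exonuclease that degrades decapped mRNA in the 5′ to 3′ direction. Cells of both genotypes were plated on 15 cm dishes and harvested 24 h later, with no treatment named, and each genotype was measured by RNA-Seq (mRNA) and by Ribo-Seq (ribosome-protected fragments, RPF) in 2 biological replicates, giving 8 libraries in 4 groups. The XRN1-null genotype was represented by 1 line, so that differences between lines and the effect of the edit cannot be told apart.

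The RNA-Seq libraries held 33757487 to 38145433 counts and the Ribo-Seq libraries 1921641 to 4399542, the lowest being WT Ribo-Seq replicate 1. XRN1 itself served as the check of the labels. Its RPF level was 34.4 and 49.8 CPM (counts per 1000000 counts of the library, scaled by TMM factors) in the WT libraries and 22.6 and 18.4 CPM in the XRN1-null libraries, a log2 fold change of −1.08 (SE 0.201, false discovery rate (FDR) 0.00641 by edgeR). Its mRNA level was 33.5 and 33.0 CPM in WT against 282 and 253 CPM in XRN1-null cells (log2 fold change 3.01, FDR 1.92e-06), so the XRN1 transcript rose in the null line while both null Ribo-Seq libraries lay below both WT libraries. Of the markers checked, all 6 of the genes used for HEK293T (NEFL, NEFM, INA, VIM, KRT8 and KRT18) were in the table, together with 1 of 7 genes of other cell types, COL1A1, at a mean of 14.6 CPM in WT against 37.1 CPM in XRN1-null mRNA. The part of COL1A1-expressing cells in the results below was not tested. In bulk libraries of this kind, fewer cells of a type and less RNA per cell cannot be told apart, and every level is relative to the other genes of its library.

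The pyrimidine run that gives these mRNAs their name is shown first, because it is the feature that the 9 genes are known to share. For each gene, the annotated transcript start (GENCODE 44 on GRCh37, the same coordinates as hg19) was read with 10 bases before it and 20 bases from it onwards. The letters are written 5′ to 3′ on the strand of the gene, and capitals mark the pyrimidine run that begins at the annotated first base of the transcript.
EEF1A1 (chr6:74230736-74230765, minus strand): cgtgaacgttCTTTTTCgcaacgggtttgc
EEF1B2 (chr2:207024609-207024638, plus strand): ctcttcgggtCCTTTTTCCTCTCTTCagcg
EEF1G (chr11:62341344-62341373, minus strand): cgggcggcttactttgcggcagcgccgaga
EEF2 (chr19:3985442-3985471, minus strand): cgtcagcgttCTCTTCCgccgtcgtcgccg
TPT1 (chr13:45915299-45915328, minus strand): ctgagtcggcCTTTTCCgcccgctcccccc
NAP1L1 (chr12:76478446-76478475, minus strand): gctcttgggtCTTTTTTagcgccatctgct
NPM1 (chr5:170814843-170814872, plus strand): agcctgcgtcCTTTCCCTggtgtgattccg
RACK1 (chr5:180670887-180670916, minus strand): gcttttctctCTCTCTTTCactgcaaggcg

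A start was scored as holding a tract when the first base was C and at least 4 further bases, each C or T, followed it on the strand of the transcript. Of the 8 starts shown, 7 held such a tract, with 16 pyrimidines in EEF1B2, 9 in RACK1, 8 in NPM1 and 7 in each of EEF1A1, EEF2, TPT1 and NAP1L1. The exception was EEF1G, whose annotated first base was an A. The start of EEF1D was not analysed here. The tract was present at 502 of the 9211 starts that could be read over the whole table, or 5.45%.

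EEF1A1 (chromosome 6, 74199031-74235310) and EEF1B2 (chromosome 2, 207024309-207027652) are protein-coding genes with 8 and 6 exons in the annotated main transcript, and EEF1G (chromosome 11, 62327068-62341558) has 10. EEF2 (chromosome 19, 3976054-3985461) and NAP1L1 (chromosome 12, 76430365-76478515) have 15 exons each. TPT1 lies on chromosome 13 (45907606-45915419, 6 exons). NPM1 (170814120-170838814, 11 exons) and RACK1 (180663897-180675096, 8 exons) both lie on chromosome 5. Small nucleolar RNA genes are annotated inside EEF1B2 (SNORA41 and SNORD51), EEF2 (SNORD37), TPT1 (SNORA31) and RACK1 (SNORD95 and SNORD96A). Many of the 9 genes have annotated processed copies elsewhere in the genome, 49 each for EEF1A1 and NPM1, 15 for TPT1, 8 each for EEF1B2, EEF1D and EEF1G and 3 each for NAP1L1 and RACK1, against 0 for EEF2. None of these copies was a row of the count table, so the share of reads that the copies received or gave up is uncertain, and so are the absolute levels of EEF1A1 and NPM1 in particular. EEF1A1 is overlapped on the opposite strand by MTO1, EEF1D by TIGD5, and EEF1G on its own strand by the readthrough gene ENSG00000255508; reads shared with these cannot be told apart in the table.

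The first question was how abundant these transcripts were. The 9 genes together took 2.34% ± 0.0188 of all RNA-Seq counts in WT cells and 1.96% ± 0.0160 in XRN1-null cells (SD, n = 2). Their share of the RPF counts was 2.20% ± 0.161 in WT and 2.20% ± 0.0641 in XRN1-null cells. EEF1A1 alone, which encodes the factor that brings aminoacyl-tRNA to the ribosome, took 0.996% ± 0.0257 of the WT mRNA counts and 0.783% ± 0.00901 of the XRN1-null counts. It was the gene with the most counts in each of the 4 RNA-Seq libraries and in 3 of the 4 Ribo-Seq libraries, and was the 3rd in WT Ribo-Seq replicate 1.

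Levels between genes were compared per length, as FPKM (counts per kb of the deposited gene width and per 1000000 counts of the library, without TMM factors). Which exons the deposited width spans is not stated, and it differs from the length of the annotated main transcript for several genes, most for NAP1L1 with 5185 against 13159 bases, so the order rests on that width. In WT cells EEF1A1 stood at 2837 ± 73.3 FPKM (SD, n = 2), the 8th highest of all genes. RACK1, a scaffold protein of the small ribosomal subunit, followed with 1992 ± 14.9 FPKM and EEF1G with 1675 ± 64.0 FPKM. NPM1, a nucleolar chaperone, stood at 1482 ± 115 FPKM, EEF2, the translocase that moves the ribosome along by a codon, at 809.5 ± 90.1 FPKM and EEF1B2 at 722 ± 54.1 FPKM. The lowest levels were those of TPT1 with 331 ± 27.4 FPKM, NAP1L1 with 136 ± 5.21 FPKM and EEF1D with 97.6 ± 1.83 FPKM. Between neighbours in this order, the values of the libraries overlapped for EEF2 and EEF1B2 and for no other pair. In XRN1-null cells the order was the same and no neighbours overlapped, with EEF1A1 at 2229 ± 25.7 FPKM, EEF2 at 908 ± 11.1 FPKM, EEF1B2 at 516 ± 6.95 FPKM and EEF1D at 86.7 ± 2.33 FPKM.

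Footprints gave another order. Per kb of coding sequence, RPF levels in WT cells ran from 5929.7 ± 537 CPM for EEF1A1, 4493 ± 662 CPM for NPM1 and 3387 ± 23.6 CPM for RACK1 down to 608 ± 68.1 CPM for NAP1L1 and 202 ± 10.6 CPM for EEF1D. In between lay EEF1B2 with 1634 ± 87.9 CPM, TPT1 with 1485 ± 179 CPM, EEF1G with 1022 ± 102 CPM and EEF2 with 929 ± 147 CPM. The libraries of EEF1B2 and TPT1 overlapped, as did those of EEF1G and EEF2. EEF1G thus stood behind EEF1A1 and RACK1 in mRNA, and in footprints per coding kb behind NPM1, EEF1B2 and TPT1 as well. The length used differed too, the deposited width for mRNA and the coding sequence for RPF. Per kb of deposited width, RPF levels in WT cells were 866 ± 80.9 FPKM for EEF1G and 158 ± 20.1 FPKM for TPT1. On that scale EEF1G stood ahead of TPT1. RACK1 with 2888 ± 0.563 FPKM then stood ahead of EEF1A1 with 2326 ± 195 FPKM.

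**Figure D1:**
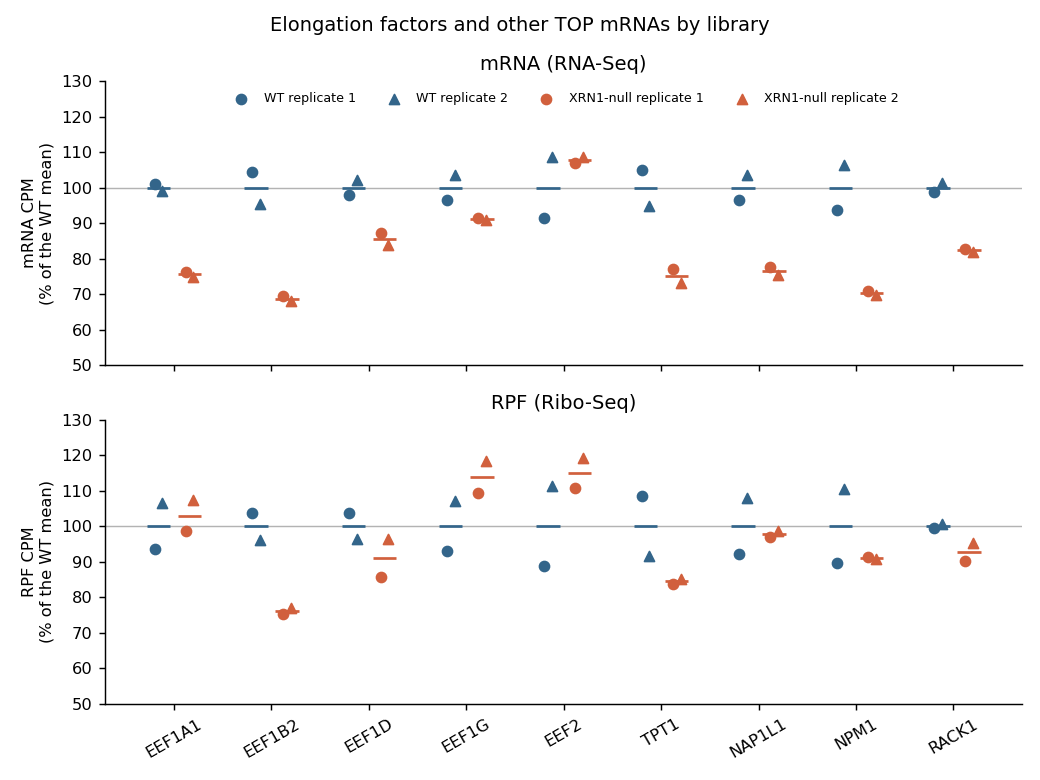
Level of each of the 9 TOP mRNAs in each library, in CPM as a percentage of the WT mean of that gene and assay (y axis, which starts at 50%), for RNA-Seq above and Ribo-Seq below. Points are single libraries (circles replicate 1, triangles replicate 2) and short lines the means of 2 libraries. In mRNA both XRN1-null libraries lie below both WT libraries for every gene but EEF2, while in RPF the genotypes overlap for EEF1A1, EEF1D, EEF2, NAP1L1 and NPM1.

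The mRNA level of most of these genes was lower in XRN1-null cells. Of the 9 genes, 6 fell at an FDR below 0.005 (edgeR quasi-likelihood test, adjusted over all genes): EEF1A1, EEF1B2, TPT1, NAP1L1, NPM1 and RACK1. Of all genes, 23.2% were called lower in mRNA and 22.9% higher; none of the 9 was called higher. At an FDR below 0.05, EEF1D was added, making 7 of 9 against 34.2% of all genes. The XRN1-null libraries lay below both WT libraries without overlap for 8 of the 9, against 43.7% of all genes.

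EEF1A1 measured 10262 and 10055 CPM in the 2 WT RNA-Seq libraries and 7746 and 7607 CPM in the XRN1-null libraries. The null libraries stood at 75.6% of the WT mean, well outside the spread of either pair. The log2 fold change was −0.40 (SE 0.0486, FDR 0.000263).

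EEF1B2, EEF1D and EEF1G encode subunits of eEF1B, the complex that recharges eEF1A with GTP; the first and second carry out the nucleotide exchange and EEF1G is its structural subunit. EEF1B2 measured 854 and 780.5 CPM in WT against 567 and 556 CPM in XRN1-null cells. With all libraries this was the lowest of the 9 relative to WT, at 68.7% of the WT mean, with a log2 fold change of −0.54 (SE 0.0675, FDR 0.000312). Without WT RNA-Seq replicate 1, NPM1 fell more, by −0.58 against −0.46 for EEF1B2. EEF1D measured 308 and 321 CPM in WT against 274 and 263 CPM in XRN1-null cells, a log2 fold change of −0.23 (SE 0.0635) that missed the threshold with an FDR of 0.0144. EEF1G measured 2536 and 2720.3 CPM in WT against 2403 and 2387 CPM in XRN1-null cells. Its libraries did not overlap, and the difference was not called (log2 fold change −0.13, SE 0.0589, FDR 0.0781). The 3 subunits of the complex therefore stood at 68.7%, 85.4% and 91.1% of their WT means; the differences between the subunits were not tested.

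EEF2 was the one gene of the set with overlapping libraries. It measured 2382 and 2835 CPM in WT against 2789 and 2833 CPM in XRN1-null cells, with a log2 fold change of 0.11 (SE 0.0837, FDR 0.284). The WT libraries differed from each other by more than the null libraries did from either mean.

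The 4 genes that are no elongation factors were all called lower. NPM1 measured 2522 and 2861 CPM in WT against 1907 and 1879 CPM in XRN1-null cells (log2 fold change −0.51, SE 0.0714, FDR 0.000563), or 70.3% of WT. TPT1, which encodes the translationally controlled tumour protein, measured 1707 and 1543 CPM in WT against 1251 and 1189.6 CPM in XRN1-null cells (log2 fold change −0.41, SE 0.0695, FDR 0.00136). The null libraries of TPT1 both lay below its lower WT library. NAP1L1, a histone chaperone, measured 694 and 744 CPM in WT against 557 and 543 CPM in XRN1-null cells (log2 fold change −0.39, SE 0.0646, FDR 0.00132). RACK1 measured 2223 and 2283 CPM in WT against 1866 and 1847 CPM in XRN1-null cells (log2 fold change −0.28, SE 0.0546, FDR 0.00281). RACK1 had the smallest fall among the 6 called genes, and it alone was not called when library totals replaced TMM factors (FDR 0.00866).

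The median log2 fold change of the 9 genes in mRNA was −0.39, against −0.01 over all genes. The calls rested on both XRN1-null RNA-Seq libraries, while the sizes of the changes moved less. The median was −0.41 without XRN1-null RNA-Seq replicate 1 and −0.37 without replicate 2. Without XRN1-null RNA-Seq replicate 1 or without replicate 2, none of the 9 was called, although no gene changed direction: EEF1B2 had the lowest FDR of the 9 in both cases, 0.00645 and 0.00857. Without WT RNA-Seq replicate 1 all but EEF2 were called lower, 8 of 9; without WT RNA-Seq replicate 2, 7 were called lower and EEF2 was called higher (log2 fold change 0.24, FDR 4.84e-08). Calls over all 10105 genes moved the same way, with 1113 lower without XRN1-null RNA-Seq replicate 1, 1097 without replicate 2, 3114 without WT RNA-Seq replicate 1 and 3389 without replicate 2, against 2344 with all libraries. In these fits the group left with a single library was assumed to vary like the other.

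**Figure D2:**
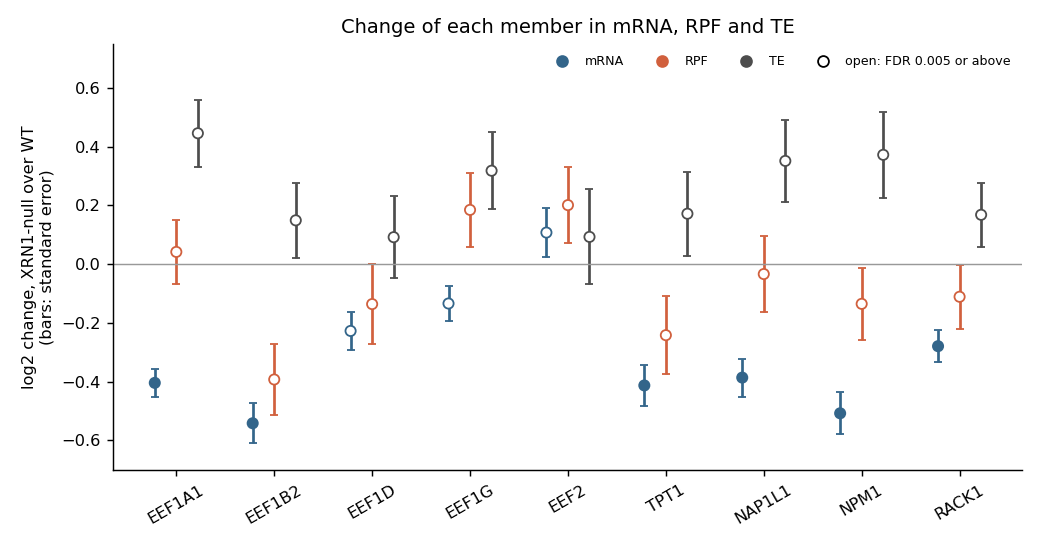
Log2 change, XRN1-null over WT (y axis), of the 9 TOP mRNAs in mRNA (blue), RPF (orange) and translational efficiency (TE, grey). Bars are standard errors of the edgeR fit over 2 libraries per group, filled points have an FDR below 0.005 and open points do not. The 6 filled points are all mRNA changes, between −0.28 and −0.54, and the TE points of all 9 genes lie above 0.

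Ribosome footprints showed no called change. At an FDR below 0.005, none of the 9 genes was higher or lower in RPF by edgeR or by DESeq2, and 1 of 9 had an unadjusted p below 0.05 by edgeR, as did 3336 of the 10105 genes. Over the whole table the calls were few too, 1.14% lower and 0.633% higher. The spread between replicates was larger in this assay, with a biological coefficient of variation of 9.84% against 6.02% in RNA-Seq. The count therefore does not show that footprints were equal in both genotypes.

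EEF1A1 measured 7692 and 8745 CPM in the WT Ribo-Seq libraries and 8106 and 8816 CPM in the XRN1-null libraries. These libraries overlapped, and the log2 fold change was 0.04 (SE 0.108, FDR 0.816). EEF1B2 measured 1145 and 1061 CPM in WT against 832 and 848 CPM in XRN1-null cells, a log2 fold change of −0.39 (SE 0.122). Its FDR of 0.0481 was below 0.05 but not below 0.005; it was the one gene of the 9 under the wider threshold, which 8.38% of all genes met in that direction. EEF1B2 thus had the lowest RPF level relative to WT, 76.2%, as it had the lowest mRNA level relative to WT with all libraries.

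EEF1G, the structural subunit, measured 1245 and 1435 CPM in WT against 1463 and 1585 CPM in XRN1-null cells, a log2 fold change of 0.18 (SE 0.125, FDR 0.324). EEF1D measured 406 and 377 CPM in WT against 335 and 377 CPM in XRN1-null cells, with overlapping libraries (log2 fold change −0.14, SE 0.136, FDR 0.512). EEF2 measured 2123 and 2657 CPM in WT against 2649 and 2849.9 CPM in XRN1-null cells, again overlapping (log2 fold change 0.20, SE 0.130, FDR 0.303). The highest value of EEF2 in WT came from replicate 2 in both assays.

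NPM1 measured 3549.8 and 4375 CPM in WT and 3619 and 3599 CPM in XRN1-null cells (log2 fold change −0.14, SE 0.123, FDR 0.468). TPT1 measured 831 and 701 CPM in WT against 642 and 652 CPM in XRN1-null cells (log2 fold change −0.24, SE 0.132, FDR 0.225). The null libraries of TPT1 were both below the WT libraries and those of NPM1 lay inside the range of the WT pair. NAP1L1 measured 657 and 769.7 CPM in WT against 691 and 705 CPM in XRN1-null cells (log2 fold change −0.03, SE 0.131, FDR 0.881). RACK1 measured 3205 and 3237 CPM in WT against 2901 and 3064 CPM in XRN1-null cells (log2 fold change −0.11, SE 0.109, FDR 0.506).

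Libraries of the genotypes did not overlap in RPF for EEF1B2, TPT1 and RACK1, all lower, which are 3 of 9 against 32.3% of all genes. They did not overlap, with higher null values, for EEF1G, 1 of 9 against 32.1% of all genes. The median log2 fold change of the 9 genes in RPF was −0.11, against −0.00 over all genes, and turned to 0.036 without WT Ribo-Seq replicate 2. The calls depended on WT Ribo-Seq replicates. Without WT Ribo-Seq replicate 2, EEF1B2 (FDR 1.43e-06) and TPT1 (FDR 0.00018) were called lower and EEF1G (FDR 0.00171) and EEF2 (FDR 9.64e-05) higher. Without WT Ribo-Seq replicate 1, EEF1B2 (FDR 0.000373) was called lower and no other gene of the 9. Leaving out an XRN1-null Ribo-Seq library gave no call. Over all genes the calls also became many more, 1087 lower and 1282 higher without WT Ribo-Seq replicate 2 and 707 lower and 588 higher without WT Ribo-Seq replicate 1, against 115 and 64 with all libraries.

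**Figure D3:**
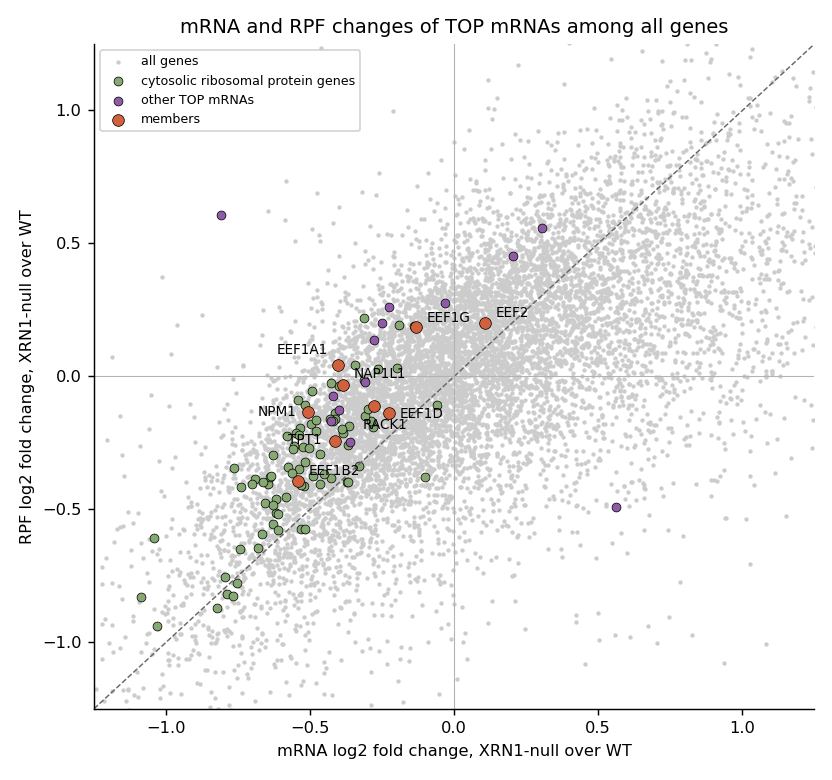
Log2 fold change in mRNA (x axis) and in RPF (y axis), XRN1-null over WT, for all genes (grey), with the 9 TOP mRNAs named (orange), the ribosomal protein genes (green) and the other listed TOP mRNAs (purple); 475 genes lie outside the axes. On the dashed line the change in RPF equals that in mRNA; all 9 named genes lie above it.

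Translational efficiency (TE) is the level of RPF over that of mRNA, and 1 model over all 8 libraries tested whether the genotype difference itself differed between RPF and mRNA. All 9 genes had a log2 change in TE above 0, from 0.09 to 0.45, whereas 51.0% of all genes did. Without WT RNA-Seq replicate 2 the change of EEF2 was −0.04, and without WT Ribo-Seq replicate 1 it was −0.05; the other 8 stayed above 0 whichever library was left out, EEF1D barely so at 0.0046 without XRN1-null Ribo-Seq replicate 2. EEF1B2 went down to 0.063 without WT RNA-Seq replicate 1 and TPT1 to 0.063 without WT Ribo-Seq replicate 2. None of the 9 was called higher or lower at an FDR below 0.005 by edgeR or DESeq2, and 4 had an unadjusted p below 0.05, as did 2356 of the 10105 genes. Calls were rare over the whole table as well, 0.0495% higher and 1.78% lower. The mRNA level is the denominator of TE, so that the TE change is not independent of the mRNA change. Of the other 2338 genes called lower in mRNA, 72.1% also had a TE change above 0, with a median of 0.15. Their median log2 fold change was −0.53 in mRNA and −0.40 in RPF, against −0.39 and −0.11 for the 9 genes. What lay behind the TE changes was not tested.

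EEF1A1 had the largest TE change of the 9 with all libraries. Without WT RNA-Seq replicate 1, that of NPM1 was larger, 0.44 against 0.41 for EEF1A1. For EEF1A1 the ratio of mean RPF CPM to mean mRNA CPM was 0.809 in WT and 1.10 in XRN1-null cells. The log2 change was 0.45 (SE 0.113, FDR 0.0334 by edgeR). It was the one gene of the 9 below an FDR of 0.05, which 1.02% of all genes met with a higher TE. Over the alternatives tried its FDR ranged from 0.000295, in the fit with a block for libraries that share genotype and replicate number, to 0.165, without XRN1-null RNA-Seq replicate 2.

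NPM1 had TE ratios of 1.47 in WT and 1.91 in XRN1-null cells (log2 change 0.37, SE 0.146, FDR 0.149). In the same block fit, which called 55 genes higher in TE over the whole table against 5 without it, NPM1 (FDR 0.0020) and EEF1A1 were called higher and the other 7 were not. NAP1L1 had TE ratios of 0.992 and 1.27 (log2 change 0.35, SE 0.140, FDR 0.153) and EEF1G 0.510 and 0.636 (log2 change 0.32, SE 0.132, FDR 0.170). These 3 genes and EEF1A1 are the 4 with an unadjusted p below 0.05. The other genes had smaller changes: 0.17 for TPT1 (SE 0.143), 0.17 for RACK1 (SE 0.109), 0.15 for EEF1B2 (SE 0.128), 0.09 for EEF2 (SE 0.162) and 0.09 for EEF1D (SE 0.139). EEF1B2, whose mRNA fell most with all libraries, had a log2 fold change of −0.39 in RPF that was not called. The median log2 change in TE was 0.17, against 0.01 over all genes.

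The TE level within WT cells placed these mRNAs at very different ranks, and the rank depended on how length was treated. By the ratio of CPM values, NPM1 stood at percentile 86.7 of all genes, RACK1 at 85.4, EEF1B2 at 82.7 and EEF1D at 78.4. NAP1L1 (63.6), EEF2 (57.7) and EEF1A1 (49.1) lay in the middle, and EEF1G (22.3) and TPT1 (18.9) were low. Footprints cover the coding sequence and mRNA reads the whole transcript, so that a gene with long untranslated parts has a low ratio of CPM values. With RPF per kb of coding sequence over mRNA per kb of deposited width, TPT1, with 516 coding bases in a width of 4814 bases, stood at percentile 89.3. NAP1L1, with 1173 coding bases in a width of 5185, also reached 89.3. EEF1G fell to 6.39 and EEF2 to 24.1, while RACK1 went to 46.0 and EEF1A1 to 58.7. The low place of EEF1G therefore held under both definitions, and that of TPT1 did not. The place of TPT1 per length rests on its deposited width of 4814 bases. The length of the TPT1 transcripts present in these cells was not measured. Since the exons behind the deposited width are not stated, the percentiles per length carry that doubt, those of NAP1L1 (width 5185, annotated main transcript 13159 bases), EEF1D (3160 against 2090 bases) and EEF1B2 (1110 against 808 bases) in particular.

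**Figure D4:**
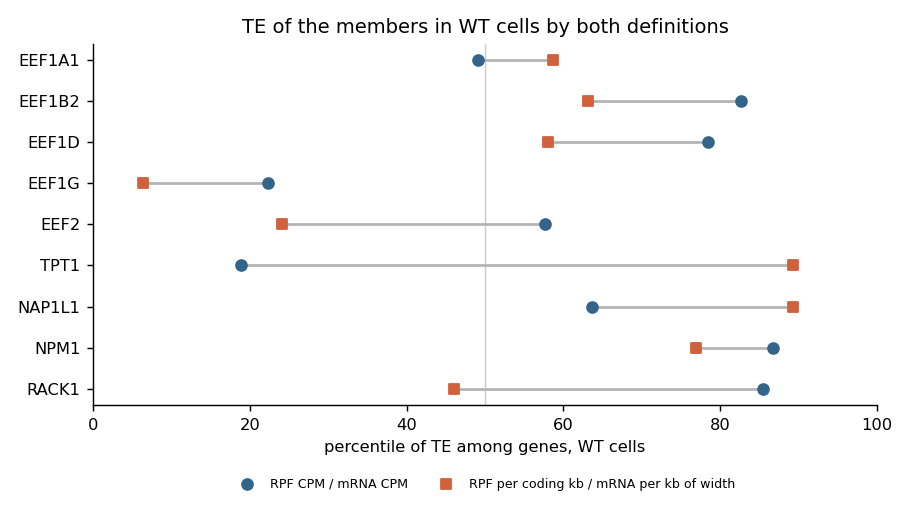
Percentile of the TE level in WT cells (x axis) for each of the 9 TOP mRNAs, by the ratio of CPM values (blue circles, among 10105 genes) and by RPF per coding kb over mRNA per kb of deposited width (orange squares, among the 9322 genes with a coding length). TPT1 moves from 18.9 to 89.3, and EEF1G stays low at 22.3 and 6.39.

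The ribosomal protein genes, the largest family of TOP mRNAs, gave the nearest comparison. Of 81 cytosolic ribosomal protein genes, 76 fell in mRNA and none rose, with a median log2 fold change of −0.52. In RPF 5 fell, with a median of −0.34. Of all genes, 23.2% were called lower in mRNA and 1.14% in RPF. Their share of mRNA counts was 11.2% ± 0.606 in WT and 8.15% ± 0.0566 in XRN1-null cells (SD, n = 2), and their share of RPF counts 11.7% ± 0.825 and 9.77% ± 0.172. No ribosomal protein gene was called in TE with all libraries and no block; 70 of 81 had a change above 0 and the median was 0.20, near the 0.17 of the 9 genes. The highest TE changes were those of RPL5 (log2 change 0.53, FDR 0.0368) and RPL9 (0.45, FDR 0.0424), and the lowest those of RPL10A (−0.28, FDR 0.246) and RPS28 (−0.06, FDR 0.877), none of them called. The number of RPF calls depended on single libraries: without WT Ribo-Seq replicate 2 there were 51 lower and without WT Ribo-Seq replicate 1 there were 35, and without either XRN1-null Ribo-Seq library 0. In mRNA, 29 were called lower without XRN1-null RNA-Seq replicate 1 and 27 without replicate 2.

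Of 15 other TOP mRNAs that encode no ribosomal protein, 6 fell and 3 rose in mRNA, with a median log2 fold change of −0.25. Of all genes, 23.2% were called lower and 22.9% higher. The 3 that rose were PABPC4 and the snoRNA host transcripts GAS5 and SNHG1. The median was 0.20 in RPF and 0.27 in TE. None of the 15 was called in RPF by edgeR or DESeq2, with 6 at an unadjusted p below 0.05, but 9 were higher and 1 lower without WT Ribo-Seq replicate 2, 4 higher and 1 lower without WT Ribo-Seq replicate 1, and 1 higher without XRN1-null Ribo-Seq replicate 1. PABPC1, the main cytoplasmic poly(A)-binding protein, had the largest TE change, 1.41 (SE 0.236, FDR 0.00398), with mRNA at 1316 ± 45.2 CPM in WT against 752 ± 7.59 CPM in XRN1-null cells. Its paralog PABPC4 moved the other way, with a TE change of −1.06 (SE 0.177, FDR 0.0040) and mRNA at 242 ± 26.4 and 356 ± 0.962 CPM. The TE call of PABPC1 held without WT Ribo-Seq replicate 1 (FDR 0.000168) or replicate 2 (FDR 1.12e-05) and was lost without any of the other 6 libraries, with an FDR of at most 0.0445. That of PABPC4 held without WT Ribo-Seq replicate 1 (FDR 0.00038) or WT RNA-Seq replicate 2 (FDR 0.00475) and was lost without any of the others, with an FDR of at most 0.0546. In mRNA, 1 gene of this list was called lower without XRN1-null RNA-Seq replicate 1 or without replicate 2, and 5 were called higher without WT RNA-Seq replicate 1 or without replicate 2. SNHG1, a snoRNA host transcript without a known protein, rose in mRNA by 1.97 on the log2 scale (FDR 1.09e-05), with a TE change of −0.93 (SE 0.240, FDR 0.0357). GAS5 rose by 1.31 (FDR 1.37e-05), with a TE change of −0.55 (SE 0.181, FDR 0.0907). EIF3H, a subunit of initiation factor eIF3, had a TE change of 0.48 (SE 0.183, FDR 0.140).

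Elongation factors outside the TOP set and the enzymes that modify elongation factors had medians of −0.19 in mRNA, −0.16 in RPF and 0.05 in TE. These were 21 genes, sought by 24 symbols, some of them older symbols of genes also listed. In mRNA 7 of the 21 fell and 3 rose, against 23.2% called lower and 22.9% called higher over all genes. None was called by edgeR in RPF or TE, with 5 and 6 at an unadjusted p below 0.05. Fits without 1 library called up to 3 lower in RPF and 2 lower in TE, both without WT Ribo-Seq replicate 1, and DESeq2 called 1 lower in TE. Without XRN1-null RNA-Seq replicate 1 there were 4 lower in mRNA and without replicate 2 there were 3, and without WT RNA-Seq replicate 2 there were 11 lower and 6 higher. EEF2K, the kinase that inactivates eEF2, rose in mRNA from 37.7 ± 2.39 to 65.0 ± 2.58 CPM (log2 fold change 0.78, FDR 8.21e-05), and its RPF level was 39.1 ± 7.41 CPM in WT against 39.7 ± 1.03 CPM in XRN1-null cells. VARS, the valyl-tRNA synthetase that associates with eEF1, rose in mRNA from 157 ± 21.2 to 284 ± 0.657 CPM, and its RPF level was 165 ± 18.8 and 172 ± 16.6 CPM. DPH3, which takes part in the synthesis of the diphthamide residue of eEF2, fell in mRNA from 89.6 ± 10.8 to 65.0 ± 2.64 CPM. EIF5A2, the less abundant form of eIF5A in most tissues, had a log2 change in TE of 0.49 (SE 0.233, FDR 0.230).

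The mitochondrial counterparts are not TOP mRNAs. TUFM, the mitochondrial homolog of eEF1A, fell in mRNA from 426 ± 21.0 to 261 ± 6.09 CPM (log2 fold change −0.71, FDR 8.63e-05), and its RPF level was 435 ± 5.78 and 272 ± 3.37 CPM (log2 fold change −0.68, FDR 0.00772). The RPF difference of TUFM was called without WT Ribo-Seq replicate 1 (FDR 1.49e-11) or replicate 2 (FDR 9.14e-11), and not without XRN1-null Ribo-Seq replicate 1 (FDR 0.168) or replicate 2 (FDR 0.146). With all libraries, DESeq2 called 1 of these 4 genes lower in RPF. TSFM, GFM1 and GFM2 were not called, with log2 fold changes in mRNA between 0.07 and 0.12. The TE changes of these 4 genes lay between 0.01 and 0.10, and none had an unadjusted p below 0.05.

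Of 21 regulators of TOP mRNAs, among them LARP1, the mTORC1 subunits and the 4E-binding proteins, 8 rose and 7 fell in mRNA. Of all genes, 22.9% were called higher and 23.2% lower in mRNA. In RPF 1 regulator fell, MLST8, against 1.14% of all genes. Without XRN1-null RNA-Seq replicate 1, 5 rose and 3 fell; without replicate 2, 3 fell, and without WT RNA-Seq replicate 2, 13 rose. The call for MLST8, a subunit of the mTOR complexes, was lost without XRN1-null Ribo-Seq replicate 1 (FDR 0.0103) or replicate 2 (FDR 0.0188), and no regulator was called lower in RPF by DESeq2. Without WT Ribo-Seq replicate 2, 7 regulators were higher and 2 lower in RPF, and without WT Ribo-Seq replicate 1, 1 was higher and 3 were lower. The median log2 changes were 0.19 in mRNA, −0.00 in RPF and 0.02 in TE. EIF4E, which binds the cap, fell in mRNA from 147 ± 20.9 to 96.0 ± 1.72 CPM, with RPF at 142 ± 22.6 and 135 ± 3.97 CPM. TIA1, an RNA-binding protein of stress granules, rose in mRNA from 61.9 ± 2.27 to 101 ± 0.573 CPM. TSC2, an inhibitor upstream of mTORC1, had a log2 change in TE of −0.69 (FDR 0.0160), and HNRNPD one of 0.34 (SE 0.196, FDR 0.321). No regulator was called in TE by edgeR, with 6 at an unadjusted p below 0.05; DESeq2 called 1 lower, and 2 were called lower by edgeR without WT Ribo-Seq replicate 1.

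The tract at the transcript start was then counted in each list. It was found at 10 of 12 starts of the other TOP mRNAs (83.3%) and 56 of 77 of the ribosomal protein genes (72.7%), against 2 of 19 of the other elongation factors and enzymes, 0 of 20 of the regulators and 0 of 4 of the mitochondrial factors. Over all 502 genes whose start held the tract, 35.3% were called lower and 18.5% higher in mRNA, with a median log2 fold change of −0.13. Among the 8709 genes without it, 22.1% were lower and 23.6% higher, with a median of −0.00. When the 9 genes, the other listed TOP mRNAs and the ribosomal protein genes were set aside, 429 genes with a tract remained, of which 25.6% were lower and 21.2% higher, with a median of −0.05 in mRNA and 0.01 in TE. These counts rest on 1 annotated start per gene, and the starts used in these cells were not measured here.

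Genes with a pattern like that of the 9 were sought over the 8 libraries. For the 3875 genes with at least 100 counts in every library, the log2 CPM deviations from the assay mean were compared with the mean deviations of the 9 by Euclidean distance. The nearest 5 were ATP5F1 (distance 0.0716), YWHAE (0.0845), TAF7 (0.0900), EIF3F (0.0901) and GHITM (0.0938), against a median of 0.509 over all other genes. ATP5F1 encodes a subunit of mitochondrial ATP synthase, YWHAE a 14-3-3 protein and EIF3F a subunit of eIF3 that is itself among the other TOP mRNAs. Their log2 fold changes lay between −0.28 and −0.34 in mRNA and between −0.02 and −0.12 in RPF. The 9 genes themselves lay at distances from 0.0762 for RACK1 and 0.141 for NAP1L1 to 0.444 for EEF1B2 and 0.551 for EEF2, so that EEF2 was farther from the mean pattern of its own set than the median gene.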

How the data were processed

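The assays were RNA-Seq and Ribo-Seq, each with 2 WT and 2 XRN1-null libraries of HEK293T. Per the study's methods, the authors removed rRNA reads with Bowtie2, mapped the others to hg19 with TopHat2, selected footprint lengths, counted reads per gene with QuasR and kept genes above an FPKM of 2; versions are not given in the sources used here. The authors deposited raw counts per gene for the 8 libraries, together with a gene width in bases. Tables of the authors' own fold changes, p-values and TE values were not used.

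The counts as deposited were fitted with edgeR 4.0.16 (quasi-likelihood test, TMM factors within each assay, genotype only; R 4.3.3). The change in TE was the interaction of assay and genotype over 8 libraries. P-values were adjusted by Benjamini-Hochberg over 10105 genes, and calls have an FDR below 0.005. All tests are two-sided; the series' design text calls the replicates biological, and p-values measure the spread between 2 libraries per group. Precision follows the library totals given above, and no library was left out. Alternatives were DESeq2 1.42.0 (adjusted p-values), the likelihood ratio test, other scalings, a minimum of 10 counts in every library, an FDR of 0.05, the replicate number as a block (for TE also genotype with replicate number), and leaving out each library. The fits were tested on simulated data.

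Starts, exons and coding lengths came from GENCODE 44 on GRCh37, matched by symbol for 9521 genes; a start was read for 9211 genes and the 8 printed stretches were identical in the RefSeq promoter table of the same build. GNB2L1 was matched to RACK1 through RefSeq synonyms. The genes named were the 9 TOP mRNAs, XRN1, from each list at most 2 genes with the largest rise and 2 with the largest fall in TE, and the 5 genes of most similar pattern. MLST8, GAS5 and COL1A1 were named after their values were seen. The 9 genes and the lists were chosen with earlier results of these data known.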

Additional observations from a re-analysis of the deposited data

How the results depend on the processing

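For the 9 TOP mRNAs, the number called lower in mRNA was 6 with TMM factors and 5 with library totals, with which the median log2 fold change was −0.33 in place of −0.39. With an FDR of 0.05, 1 gene was lower in RPF and 1 higher in TE; with a block that pairs both assays by genotype and replicate number (whether such libraries share a culture is not stated), 2 were higher in TE, EEF1A1 (FDR 0.000295) and NPM1 (FDR 0.0020). Leaving out each library in turn gave 0 to 8 genes lower and 0 to 1 higher in mRNA, 0 to 2 lower and 0 to 2 higher in RPF and 0 in TE, with medians from −0.41 to −0.32 in mRNA, −0.13 to 0.036 in RPF and 0.16 to 0.28 in TE. In these fits the log2 fold change in RPF ranged from −0.043 to 0.15 for EEF1A1 (below 0 without WT Ribo-Seq replicate 1 and, at −0.020, without XRN1-null Ribo-Seq replicate 2), from −0.14 to 0.099 for NAP1L1 and from −0.27 to 0.036 for NPM1 (both above 0 without WT Ribo-Seq replicate 2), and the TE change of EEF2 from −0.054 to 0.28 (below 0 without WT Ribo-Seq replicate 1 and, at −0.036, without WT RNA-Seq replicate 2). The other RPF changes kept their sign. They ranged from 0.053 to 0.38 for EEF2, 0.091 to 0.30 for EEF1G and −0.35 to −0.11 for TPT1. For EEF1D the range was −0.22 to −0.053, for RACK1 −0.15 to −0.072 and for EEF1B2 −0.44 to −0.33. The mRNA change of EEF2 ranged from 0.0080 to 0.24. The cause was not tested.

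The labels number the replicates but do not say that libraries of 1 number were prepared together, and same-numbered libraries deviated with a correlation of 0.190 in mRNA and 0.0803 in RPF over all genes, and of 0.682 and 0.00055 over the 9 genes alone, with 2 pairs each. With the replicate number as a replicate block, the calls for the 9 genes stayed at 6 lower in mRNA and 0 otherwise, and EEF1A1 had an FDR of 0.0607 in TE. In RPF, 17 ribosomal protein genes were lower with the replicate block, 13 with the likelihood ratio test and 2 with at least 10 counts in every library, against 5; the replicate block also gave 4 other TOP mRNAs higher, 2 other elongation genes lower, 1 mitochondrial factor lower and 2 regulators lower and 2 higher. The likelihood ratio test gave 2 other TOP mRNAs higher, 1 other elongation gene, 1 mitochondrial factor and 2 regulators lower, and library totals 1 other TOP mRNA higher. Over all genes the replicate block gave 2805 lower and 2858 higher in mRNA, 665 and 616 in RPF and 190 and 7 in TE, against 2344 and 2313, 115 and 64, and 180 and 5 without it. Over all genes the likelihood ratio test gave 596 lower and 469 higher in RPF and 596 and 71 in TE, DESeq2 gave 322 lower in TE and 98 higher in RPF, library totals 133 higher in RPF, and the block pairing both assays 435 and 55 in TE, with 8 ribosomal protein genes higher. The depth of Ribo-Seq, lowest in WT replicate 1, and 2 libraries per group limit the RPF and TE comparisons.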
